A study of Mus musculus with 9 samples.

Results

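Mature dendritic cells (DCs) of leukemic spleen were compared with those of normal spleen. The comparison used 6 of the 9 samples of the series, the 3 samples of mature conventional DCs (cDCs) from healthy mice, called N-mDCs, and the 3 samples of mature cDCs from mice with T-cell acute lymphoblastic leukemia (T-ALL), called T-mDCs. The samples were chosen by their labels, and 12142 of the 54532 genes of the deposited table were tested in them. The other 3 samples, called T-DCs, are labelled as immature DCs of leukemic spleen and were sorted as CD11c+MHCIIlo. They were not part of the comparison, so both groups described here are labelled as mature cells.

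The labels give no strain. The methods name young female C57BL/6J mice, and C57BL/6J or C57B6.SJL mice as recipients of leukemia cells. N-mDCs came from mice without leukemia and without treatment per the labels. T-mDCs came from non-irradiated mice at a late stage of leukemia that had received GFP+ T-ALL cells. These cells had been made by infecting c-kit+ bone marrow cells with the retrovirus MSCV-ICN1-IRES-GFP, which carries the intracellular domain of Notch1 (ICN1) and a GFP reporter. The model therefore has an activated Notch1 in the leukemia cells, which are marked by GFP. Spleen cells were depleted of red blood cells, and the methods describe a CD11c enrichment with microbeads followed by FACS sorting for the low-MHCII cells. Neither the labels nor the methods say how many mice made up a sample, so p-values measure the spread between these samples, which may be technical.

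DCs take up antigen, carry it to T cells and present it on MHC molecules. Spleen holds 2 main cDC subsets, cDC1, which are known for cross-presenting antigen to CD8+ T cells, and cDC2, which mainly prime CD4+ T cells. Sensing of microbes, cytokines or cell stress induces in DCs a fast wave of transcription factor genes, followed by cytokines, chemokines and the genes of maturation and migration.

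Between 15948055 and 17845360 reads lay on genes in N-mDCs, and between 17351223 and 18288160 in T-mDCs. Samples 2 and 3 of T-mDCs resembled each other far more than other replicates did. Their counts gave a chi-square of 1.80 per gene over genes with 20 to 199 reads, where a value of 1 stands for counting noise, beside 5.45 to 9.39 for the other pairs within N-mDCs or T-mDCs. In the most abundant genes it reached 3.72, which is above counting noise, beside 111 to 315 for those other pairs. Samples 2 and 3 of T-mDCs were kept apart, and the counts over all genes and those of most lists are also given with these 2 samples averaged into 1. The label of the cells fitted the markers of cDCs. Itgax, which encodes CD11c, was at 230.2, 158 and 159.8 FPKM (fragments per kilobase of gene, scaled to the depth of the sample) in N-mDC samples 1 to 3 and at 159, 166 and 167 FPKM in T-mDC samples 1 to 3. Flt3, the receptor for the DC growth factor, was at 78.8, 44.4 and 54.3 FPKM and at 62.9, 86.6 and 89.1 FPKM in the same order, which is kept in all values below. The groups overlapped for both genes. Of 12 tested markers of conventional DCs, 0 were called with limma or with limma-voom on recovered reads, and 1 (H2-Ab1) had an unadjusted p under 0.05. Their summed FPKM, carried mostly by MHCII genes, was 21578, 23296 and 16073 in N-mDCs and 10818, 15267 and 15326 in T-mDCs.

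In T-mDCs, 383 genes (3.15% of the genes tested) were expressed at higher levels than in N-mDCs and 518 genes (4.27%) at lower levels, together 7.42%. These calls were made with limma on log2(FPKM + 1), with an adjusted p under 0.05 (Benjamini-Hochberg over all genes tested, n = 3 samples per group). In every called gene the samples of the groups did not overlap. Over all tested genes, the 3 T-mDC samples lay above the 3 N-mDC samples in 2391 genes (19.7%) and below them in 1912 genes (15.7%). The log2 fold change was past 1 in 214 of the genes called higher (1.76% of the genes tested) and in 375 of those called lower (3.09%), and its median over all tested genes was 0.03. Rescaling to TPM moved that median to 0.24 and gave 659 genes higher and 330 lower, so that 66.6% of the calls were higher, beside 42.5% with FPKM. Fold changes are of FPKM + 1, so those of genes with low FPKM are understated. With T-mDC samples 2 and 3 averaged, 18 genes (0.148%) were called higher and 49 (0.404%) lower, and all of them were among the genes above. With 1 sample left out in turn, 14 genes (0.115%) were called higher and 43 (0.354%) lower each time, and 1 (0.00824%) and 8 (0.0659%) passed in every alternative. Leaving out N-mDC sample 3 gave 33 and 83 genes, leaving out T-mDC sample 2 gave 17 and 45, and leaving out T-mDC sample 3 gave 17 and 57. Without N-mDC sample 1 there were 237 and 375 genes, without N-mDC sample 2 there were 266 and 295, and without T-mDC sample 1 there were 549 and 1000. Of the tested genes, 171 (1.41%) passed the filter through N-mDCs alone and 127 (1.05%) through T-mDCs alone, of which 97 (0.799% of the genes tested) and 58 (0.478%) were called.

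**Figure D1:**
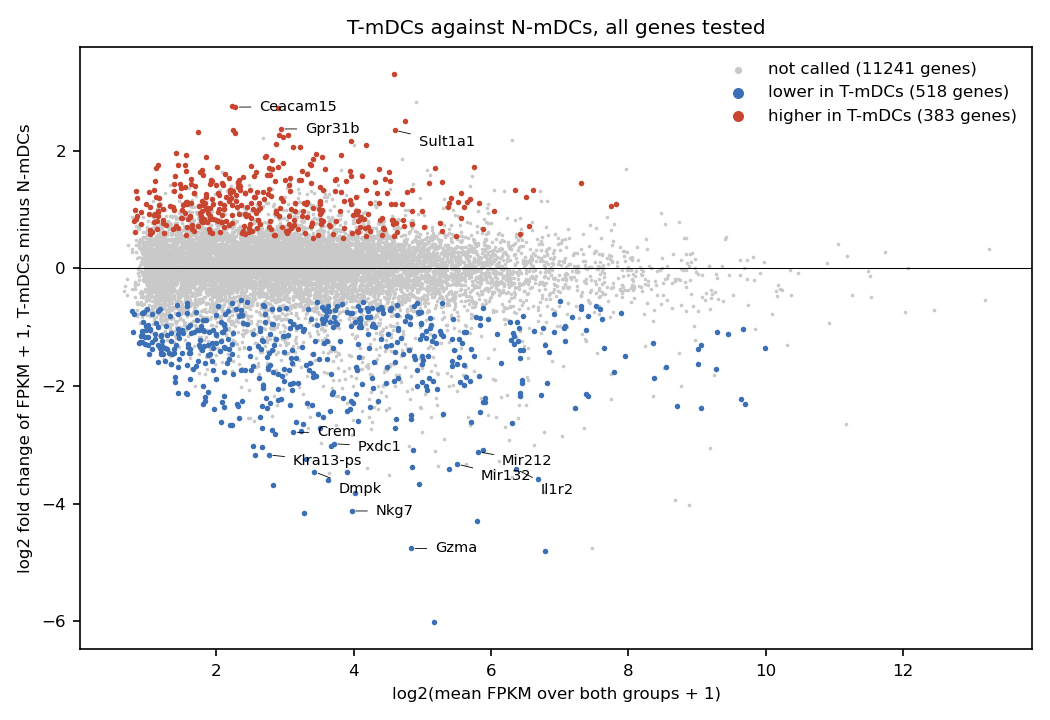
Each point is 1 of the 12142 genes tested, with log2 of the mean FPKM + 1 on the x axis and the log2 fold change of T-mDCs against N-mDCs on the y axis. The 383 genes higher in T-mDCs are red and the 518 lower genes blue, and labels mark some of the genes whose call held with T-mDC samples 2 and 3 averaged. The largest decreases reach further from 0 than the largest increases.

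Among the genes whose call held with T-mDC samples 2 and 3 averaged, the largest increase was that of Ceacam15 (chr7:16671331-16675705, genome build mm10, as all gene positions here), a member of the carcinoembryonic antigen family. It was at 0.690, 0.0447 and 0.119 FPKM in N-mDCs and at 6.59, 7.92 and 7.74 FPKM in T-mDCs (log2 fold change 2.74, standard error 0.21, limma adjusted p = 0.00431). It was near 0 in all N-mDC samples and low but present in all T-mDC samples. Ceacam15, Mylk, Ston1, mt-Tl2 and Mir7061 passed the filter on low FPKM through T-mDCs alone, so they had to differ. Sult1a1 (chr7:126672865-126676432), a sulfotransferase for phenols, rose from 7.68, 7.62 and 5.23 FPKM to 53.9, 33.2 and 31.8 FPKM (2.35, limma adjusted p = 0.00893). It had the highest mean FPKM in T-mDCs of the genes named here as higher, and its end overlaps Sgf29 on the opposite strand, from which reads without strand could not be told apart. Gk, the glycerol kinase, rose from 1.88, 1.05 and 2.71 FPKM to 15.1, 11.4 and 11.3 FPKM (2.27, limma adjusted p = 0.00893). Mylk, the myosin light chain kinase, rose from 0.119, 0.0882 and 0.0733 FPKM to 3.56, 3.19 and 3.02 FPKM (1.96, limma adjusted p = 0.00370). In Sult1a1, Gk and Mylk the lowest T-mDC sample was above the highest N-mDC sample. The other genes of this group were Gpr31b, a G protein-coupled receptor (2.37), Susd2, a membrane protein (2.26), Car13, a carbonic anhydrase (2.12), Ston1, an endocytic adaptor (1.92), and Kctd14 (1.64). Among the names given by the rule, mt-Tl2 and Mir7061 rest on few reads and have their counts in place of a fold change. The mitochondrial tRNA gene mt-Tl2 had 10 reads in T-mDCs and 0 in N-mDCs, at least 2.92-fold higher against a floor of 3 reads over the group. Mir7061, which lies inside Plekha1 on the same strand, had 9 and 0, at least 2.65-fold higher. Counting error alone is covered by these bounds.

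Gzma (chr13:113093825-113100981), the granule protease granzyme A of NK cells and cytotoxic T cells, was at 23.7, 62.5 and 76.8 FPKM in N-mDCs and at 0.579, 1.08 and 0.865 FPKM in T-mDCs (log2 fold change -4.76, standard error 0.42, limma adjusted p = 0.00539). Nkg7, a protein of the same granules, fell from 12.9, 37.6 and 36.0 FPKM to 0.464, 0.679 and 0.535 FPKM (-4.12, limma adjusted p = 0.00650). Prf1, the pore-forming protein perforin, and the Ly49 receptor pseudogene Klra13-ps fell as well (-2.66 and -3.17), although reads of Klra13-ps could belong to other genes of that family. Nkg7, Prf1 and Klra13-ps passed the filter on low FPKM through N-mDCs alone. These cytotoxic genes are taken up again below with the NK cell list, and in bulk samples such as these fewer cells of a type and less RNA per cell cannot be told apart. Il1r2 (chr1:40074079-40125231), a decoy receptor that binds interleukin-1 without signaling, fell from 116, 145 and 189 FPKM to 8.44, 16.2 and 15.5 FPKM (log2 fold change -3.41, limma adjusted p = 0.00493). Pxdc1 (chr13:34627834-34653486), which encodes a PX domain protein, fell from 28.0, 16.3 and 22.7 FPKM to 1.89, 1.79 and 1.996 FPKM (-2.98, limma adjusted p = 0.00370), and its call held in 20 of 20 alternatives. Ccr3, the eotaxin receptor, fell from 28.6, 49.5 and 45.8 FPKM to 7.85, 4.52 and 4.05 FPKM (-2.71, limma adjusted p = 0.00909). Dmpk, a protein kinase of muscle, and Slc25a33, a mitochondrial carrier of pyrimidine nucleotides, had log2 fold changes of -3.46 and -2.65. The remaining names, Mir132, Mir212 and Crem, belong to the genes described next.

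Immediate early genes were expressed at lower levels in T-mDCs. They are switched on within minutes of a stimulus, without new protein, and encode the Nr4a, AP-1 and Egr transcription factors, phosphatases that limit signaling and regulators of mRNA decay. Of 36 tested genes of a list of 38, 22 were called lower and 0 higher, beside 4.27% of all tested genes called lower. The T-mDC samples were all below the N-mDC samples in 33 of the 36, beside 15.7% of all tested genes, and the median log2 fold change was -1.40.

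The Nr4a family encodes nuclear receptors without a known ligand that are induced by antigen, cytokines and cAMP. Nr4a1 (chr15:101254269-101274795) was at 1183, 1293 and 1435 FPKM in N-mDCs and at 392, 237 and 236 FPKM in T-mDCs (log2 fold change -2.21, standard error 0.23, limma adjusted p = 0.00893). Nr4a2 was at 63.5, 78.1 and 124 FPKM and at 6.73, 17.2 and 18.9 FPKM (-2.61, limma adjusted p = 0.0226), and Nr4a3 at 131, 77.9 and 209 FPKM and at 15.8, 37.9 and 39.9 FPKM (-2.12, limma adjusted p = 0.0463). For all 3 receptors each T-mDC sample lay below each N-mDC sample, with T-mDC sample 1 the highest of its group for Nr4a1 and the lowest for Nr4a2 and Nr4a3. Among the subunits of the dimeric factor AP-1, Fosl2 fell from 36.8, 38.0 and 69.3 FPKM to 6.23, 8.28 and 7.76 FPKM (-2.49, limma adjusted p = 0.00893), and Jun from 717, 744 and 807 FPKM to 249.8, 339 and 338 FPKM (-1.30, limma adjusted p = 0.0139). Junb, Jund and Atf3 fell by 1.35, 1.48 and 1.72 on the log2 scale. Fos, with a log2 fold change of -1.02, and Fosb, with -2.17, were not called (limma adjusted p = 0.0609 for Fos and 0.0503 for Fosb), although their T-mDC samples were all below. Egr1 fell from 221, 363 and 449 FPKM to 89.0, 103 and 99.3 FPKM (-1.76, limma adjusted p = 0.0194), and Egr2 had a log2 fold change of -2.07.

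Some called members of the list limit signaling or the persistence of mRNA, while others with such roles, Dusp2, Dusp5, Pde4b and Tnfaip3, were not called. Btg2 (chr1:134075170-134079120), which slows proliferation and promotes removal of poly(A) tails, was at 1054, 900.1 and 739 FPKM in N-mDCs and at 155, 182 and 176 FPKM in T-mDCs (log2 fold change -2.37, limma adjusted p = 0.00431). Zfp36, which targets cytokine mRNAs for decay, fell from 919, 1314 and 1067 FPKM to 456.9, 579.7 and 563 FPKM (-1.04, limma adjusted p = 0.0303). Dusp1, a phosphatase of MAP kinases, fell from 836, 1074 and 962 FPKM to 469, 427 and 426 FPKM (-1.11, limma adjusted p = 0.0155). Btg2, Zfp36 and Dusp1 were abundant mRNAs in N-mDCs. Crem, a factor of the cAMP pathway that binds cAMP response elements, fell from 10.4, 12.3 and 20.1 FPKM to 0.890, 1.15 and 1.39 FPKM (-2.79, limma adjusted p = 0.00539). Areg (chr5:91139599-91148432), an epidermal growth factor ligand, fell from 4.26, 5.98 and 4.58 FPKM to 0.305, 0.0852 and 0.313 FPKM (-2.26, limma adjusted p = 0.00431), and it passed the filter on low FPKM through N-mDCs alone. Apart from Mir212, the other called members were Klf2, Klf4, Ier2, Per1, Gadd45a and Vegfa, with log2 fold changes between -1.73 and -1.37.

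**Figure D2:**
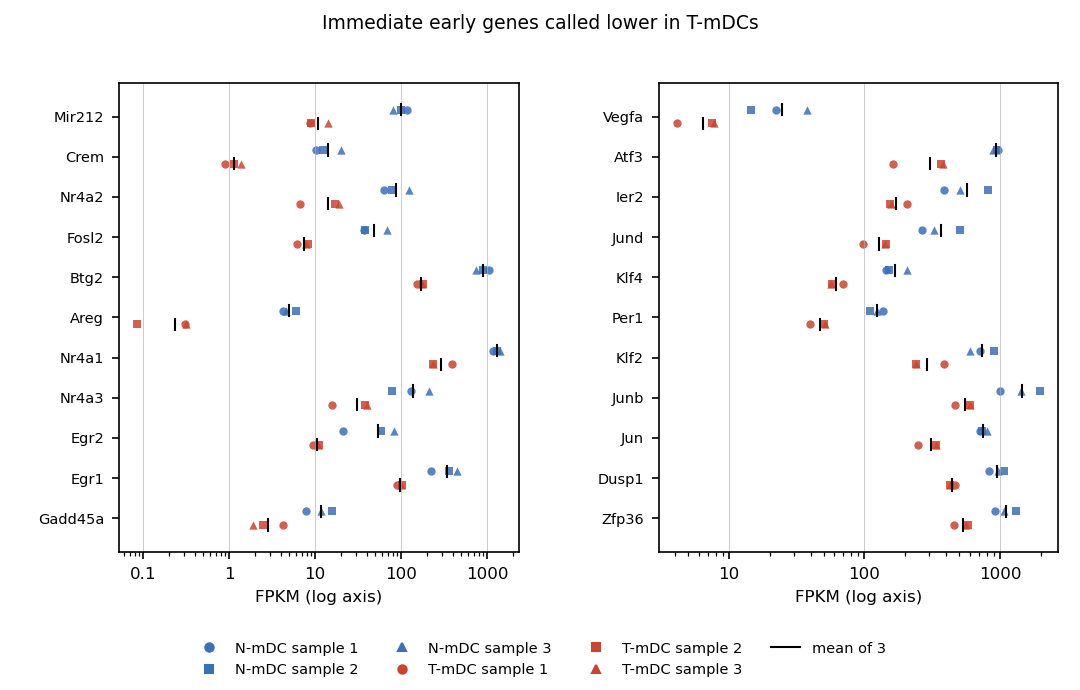
FPKM on a log axis for the 22 immediate early genes called lower, ordered by log2 fold change. Circles, squares and triangles are samples 1, 2 and 3 of N-mDCs (blue) and T-mDCs (red), and black bars are means of 3 samples. Red and blue symbols do not overlap for any gene shown.

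With T-mDC samples 2 and 3 averaged, 5 genes of the list were called lower, which were Fosl2, Crem, Btg2, Mir212 and Areg. The list held 5 called genes without T-mDC sample 2, 6 without T-mDC sample 3, 7 without N-mDC sample 3 and 12 without N-mDC sample 2, and its median log2 fold change stayed between -1.63 and -1.36 when any sample was left out. Many of these genes are also known to respond to the handling of tissue, and the labels do not say how long each sample was handled. Of 12 tested genes of a list of heat shock genes, 1 was called lower and 0 higher, beside 4.27% and 3.15% of all tested genes, and the median was 0.01. The T-mDC samples were all above in 4 of the 12, beside 19.7% of all tested genes, and all below in 2, beside 15.7%. The called gene was Hspa1a, an inducible heat shock protein 70, which fell from 13.7, 20.01 and 23.8 FPKM to 2.54, 2.41 and 2.31 FPKM (-2.53, limma adjusted p = 0.00465). Hspa8 and Hsp90ab1, which cells express without stress, had log2 fold changes of 0.52 and 0.15 and were not called. Without T-mDC sample 1, limma called 2 genes of the heat shock list higher and 1 lower. The part of handling in these differences was not tested.

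The microRNA genes Mir212 and Mir132 lie next to each other on the plus strand of chromosome 11 and are known to be induced with the immediate early genes through the cAMP-responsive factor CREB. Their mature sequences from RefSeq (GRCm38.p6) are shown because both fell and both 3p arms share a seed. The capitals mark bases 2 to 8, the seed with which a microRNA pairs to its targets.
mmu-miR-212-3p (chr11:75173443-75173464, plus strand): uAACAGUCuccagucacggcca
mmu-miR-132-3p (chr11:75173723-75173744, plus strand): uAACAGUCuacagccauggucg
The 3p arms had the seed AACAGUC in common, which 0 other sequences among 1679 mature mouse microRNAs in the table had, and 17 of their 22 bases were the same. Reads were counted over the hairpin genes, so they do not measure the mature microRNAs. Mir132 (chr11:75173682-75173747) was at 97.9, 82.8 and 64.3 FPKM in N-mDCs and at 7.22, 5.49 and 9.06 FPKM in T-mDCs (log2 fold change -3.33, limma adjusted p = 0.00370). Mir212 (chr11:75173388-75173478) was at 119, 100.3 and 79.9 FPKM and at 8.73, 9.10 and 14.3 FPKM (-3.12, limma adjusted p = 0.00431). These values rest on 266 and 448 reads in N-mDCs and on 27 and 55 reads in T-mDCs. Both hairpins lie inside the longer transcript 1700016P03Rik on the same strand, from which their reads cannot be separated. That transcript, named after its values were seen, was at 62.3, 43.7 and 37.3 FPKM and at 4.30, 10.4 and 7.81 FPKM (-2.56, limma adjusted p = 0.0132) and was lower in each T-mDC sample than in each N-mDC sample. The calls of Mir132 and Mir212 held in 20 of 20 alternatives, and that of 1700016P03Rik in 16 of 20.

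Promoters of immediate early genes are known to hold cAMP response elements (CREs), to which CREB binds. The windows before the start sites of Btg2, Areg and Nr4a1 from RefSeq (GRCm38.p6) are shown to place these letters in genes that fell. Capitals mark the full CRE TGACGTCA in Btg2 and Areg and its core TGACG, on either strand, in Nr4a1.
Btg2 (chr1:134079256-134079355, minus strand): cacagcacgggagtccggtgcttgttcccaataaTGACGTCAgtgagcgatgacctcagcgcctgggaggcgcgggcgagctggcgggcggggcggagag
Areg (chr5:91139489-91139588, plus strand): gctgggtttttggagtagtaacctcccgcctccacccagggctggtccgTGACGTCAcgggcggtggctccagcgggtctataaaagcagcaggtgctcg
Nr4a1 (chr15:101266596-101266845, plus strand): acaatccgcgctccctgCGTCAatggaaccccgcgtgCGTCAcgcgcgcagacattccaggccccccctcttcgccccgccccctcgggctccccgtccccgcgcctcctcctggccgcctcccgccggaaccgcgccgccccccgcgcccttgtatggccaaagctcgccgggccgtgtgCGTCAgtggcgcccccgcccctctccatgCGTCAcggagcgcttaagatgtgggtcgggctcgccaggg
The first base of the CRE lay 166 bases before the start site in Btg2 and 61 bases before it in Areg, and Nr4a1 held 4 matches of the core between 233 and 40 bases before it. Among 38 promoters found for 28 tested genes of the list, 3 (7.89%) held TGACGTCA, in Btg2, Areg and Dusp1, beside 3.03% of the promoters of all tested genes and 1.79% of all promoters. The core TGACG, which is part of the full CRE and was searched after values were seen, was in 57.9% of the list's promoters, beside 31.6% of the promoters of tested genes. The AP-1 letters TGANTCA were in 1 of the list's promoters (2.63%), beside 4.94% of those of tested genes. Both strands were searched in windows from 250 bases before to 50 bases after each start. Among all genes called lower, 3.25% of promoters held TGACGTCA and 28.0% held TGACG, and among those called higher 2.31% and 27.7%.

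Genes of cytokines and of sensors of microbes changed in both directions. Of 23 tested cytokine genes, 5 were called lower and 2 higher, and of 17 tested chemokine ligands 2 were called lower and 0 higher, beside 4.27% and 3.15% of all tested genes. Il1b (chr2:129364570-129371139), the inflammatory cytokine interleukin-1 beta, was at 858, 638 and 603 FPKM in N-mDCs and at 159, 128 and 123 FPKM in T-mDCs (log2 fold change -2.34, standard error 0.19, limma adjusted p = 0.00465). Il1a, which binds the same receptor, fell from 26.3, 26.0 and 22.3 FPKM to 9.31, 2.62 and 3.002 FPKM (-2.28, limma adjusted p = 0.0254). Together with the decoy receptor Il1r2, 3 genes of the interleukin-1 system were lower in all T-mDC samples. Nlrp3, the sensor of the inflammasome that matures interleukin-1 beta, fell from 76.1, 47.7 and 97.0 FPKM to 12.2, 21.4 and 21.1 FPKM (-1.94, limma adjusted p = 0.0238). Cxcl2, a chemokine that attracts neutrophils, fell from 30.2, 71.1 and 128 FPKM to 3.07, 6.86 and 6.52 FPKM (-3.41, limma adjusted p = 0.0208), and Ccl24, an eotaxin, from 6.12, 9.16 and 7.87 FPKM to 1.27, 1.40 and 2.23 FPKM (-1.73, limma adjusted p = 0.0115). Csf1, the macrophage growth factor, had a log2 fold change of -1.36.

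Il6 and Tnfsf15 moved the other way. Il6 rose from 1.61, 1.69 and 5.26 FPKM to 12.4, 14.6 and 14.3 FPKM (log2 fold change 2.06, limma adjusted p = 0.0238), and Tnfsf15, a ligand of the TNF family, from 0.191, 0.167 and 0.444 FPKM to 1.12, 1.61 and 1.28 FPKM (0.89, limma adjusted p = 0.0309). Il12b, the shared subunit of interleukin-12 and interleukin-23, was at 51.3, 10.8 and 32.9 FPKM in N-mDCs and at 125, 126 and 123 FPKM in T-mDCs. The T-mDC samples were all above the N-mDC samples and close to each other, but the difference missed the threshold (2.19, limma adjusted p = 0.0515). Tnfsf15 passed the filter on low FPKM through T-mDCs alone. Of 27 tested pattern recognition receptors, 2 were called higher and 4 lower, beside 3.15% and 4.27% of all tested genes. The 2 higher genes were Tlr3, also in the cDC1 list given below, and Tlr9, also in the plasmacytoid DC list. Tlr3, which senses double-stranded RNA, rose from 5.96, 6.32 and 5.02 FPKM to 12.2, 22.1 and 21.9 FPKM (1.5), and Tlr9, which senses DNA, from 19.5, 8.75 and 19.6 FPKM to 41.9, 38.1 and 38.8 FPKM (1.34). Clec7a, the beta-glucan receptor Dectin-1, fell from 168, 106 and 145 FPKM to 26.7, 32.0 and 30.3 FPKM (-2.18, limma adjusted p = 0.00562), and Cd14 and Clec4d fell by 3.58 and 2.72 on the log2 scale. Averaging T-mDC samples 2 and 3 kept the calls of Il1b, Areg, Ccl24 and Clec7a in these 3 lists and lost the others, those of Il6, Tnfsf15, Tlr3 and Tlr9 among them. The cytokine list held 2 lower calls without N-mDC sample 1, N-mDC sample 3, T-mDC sample 2 or T-mDC sample 3, 3 without N-mDC sample 2 and 8 with limma-voom on recovered reads, and its higher calls went to 1 without N-mDC sample 1 or 3 and to 0 without T-mDC sample 2 or 3 (5 at an unadjusted p under 0.05). For chemokine ligands limma called 4 lower without N-mDC sample 1, 3 without T-mDC sample 1, 1 without N-mDC sample 2 or T-mDC sample 3, and 0 without N-mDC sample 3 or T-mDC sample 2 (5 at an unadjusted p under 0.05). For pattern recognition receptors the lower calls went to 1 and the higher calls to 0 (4 at an unadjusted p under 0.05) without N-mDC sample 3, T-mDC sample 2 or T-mDC sample 3, and 2 were called lower without N-mDC sample 2 and 7 without T-mDC sample 1.

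**Figure D3:**
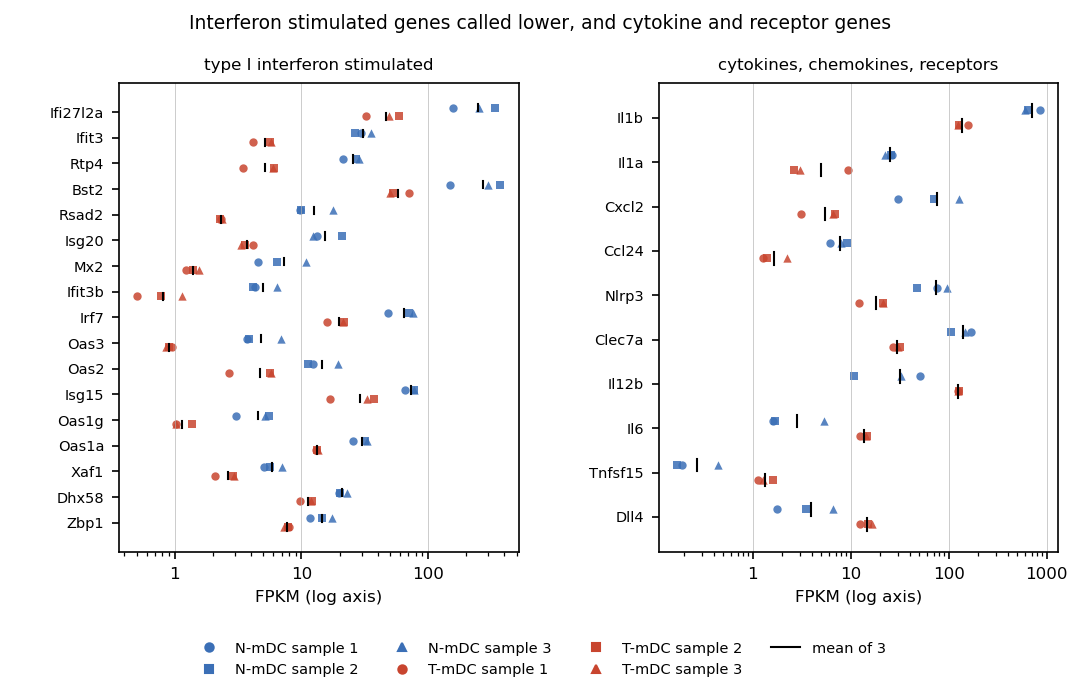
FPKM on a log axis for the 17 type I interferon stimulated genes called lower (left) and for cytokine, chemokine and receptor genes (right), with symbols by sample as marked below the panels and black bars for means of 3. All genes on the left and the upper 6 on the right were lower in each T-mDC sample, and the lower 4 on the right were higher, of which Il12b was not called.

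Type I interferon stimulated genes were lower in T-mDCs. These genes are induced by interferon through the factor ISGF3 and encode antiviral effectors and sensors. Of 46 tested genes of a list of 47, 17 were called lower and 1 higher, beside 4.27% and 3.15% of all tested genes, and the T-mDC samples were all below in 29, beside 15.7%. The median log2 fold change was -0.74. Ifit3 (chr19:34583531-34588731), an antiviral protein that binds the signaling adaptor MAVS, was at 29.5, 26.4 and 35.4 FPKM in N-mDCs and at 4.13, 5.60 and 5.80 FPKM in T-mDCs (log2 fold change -2.35, standard error 0.17, limma adjusted p = 0.00431). Rtp4 fell from 21.4, 27.2 and 28.3 FPKM to 3.46, 6.12 and 5.95 FPKM (-2.13, limma adjusted p = 0.00885). Ifit3 and its near copy Ifit3b (-1.72) may share reads. Irf7, the factor that amplifies the interferon response, fell from 48.0, 70.9 and 75.8 FPKM to 15.9, 21.7 and 21.4 FPKM (-1.66, limma adjusted p = 0.0140). Isg15, a ubiquitin-like modifier, fell from 65.7, 77.0 and 77.0 FPKM to 16.7, 37.5 and 32.9 FPKM (-1.38, limma adjusted p = 0.0444), and Rsad2, the antiviral enzyme viperin, from 9.68, 9.90 and 17.9 FPKM to 2.31, 2.29 and 2.37 FPKM (-1.97, limma adjusted p = 0.0122). For each of these genes the groups did not overlap, and T-mDC sample 1 was the lowest for Ifit3, Rtp4, Irf7 and Isg15. The called sensors and synthases Oas1a, Oas1g, Oas2, Oas3, Dhx58 and Zbp1 had log2 fold changes between -1.57 and -0.81, and Oas3 passed the filter on low FPKM through N-mDCs alone. Ifit1 was not called, with a log2 fold change of -0.61.

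The called gene that rose was Ifi205, a DNA sensor of the HIN-200 family, from 12.2, 11.2 and 9.44 FPKM to 21.3, 41.0 and 38.1 FPKM (log2 fold change 1.48, limma adjusted p = 0.0272). Bst2 and Ifi27l2a, with decreases of 2.13 and 2.37 on the log2 scale, are also abundant in plasmacytoid DCs. Bst2 is itself a member of the plasmacytoid DC list given below, in which 8 of 18 genes were called lower and 1 higher. The list held 2 lower calls (Ifit3 and Rtp4) with T-mDC samples 2 and 3 averaged, 2 without T-mDC sample 2, 3 without T-mDC sample 3 and 7 without N-mDC sample 3. Of 21 tested targets of interferon-gamma, 2 were called lower, Gbp8 (-1.30) and Irf1 (-0.96), and 0 higher, beside 4.27% and 3.15% of all tested genes. The median was -0.09. With T-mDC samples 2 and 3 averaged, and without N-mDC sample 1, N-mDC sample 3, T-mDC sample 2 or T-mDC sample 3, limma called 0 of them lower (2 or 3 at an unadjusted p under 0.05). Without T-mDC sample 1 it called 2 higher and 2 lower.

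The window before the start site of Ifit3 is shown with the letters of the interferon-stimulated response element (ISRE), searched as GAAANNGAA on either strand, in capitals.
Ifit3 (chr19:34583349-34583448, plus strand): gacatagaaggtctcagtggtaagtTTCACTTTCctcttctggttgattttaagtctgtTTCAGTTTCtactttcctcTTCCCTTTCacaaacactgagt
The 3 matches began 155, 121 and 102 bases before the start site. These letters were in 24 of 43 promoters of the list (55.8%), beside 7.73% of the promoters of tested genes and 8.56% of all promoters. They were in 14.1% of the promoters of all genes called lower and in 10.98% of those called higher. The promoter of Ifi205, which rose, held 2 matches.

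Cell cycle genes were expressed at higher levels in T-mDCs. All 38 genes of the list were tested, 25 were called higher and 1 lower, beside 3.15% of all tested genes called higher, and the T-mDC samples were all above the N-mDC samples in 32, beside 19.7%. The median log2 fold change was 1.06. Mki67, a marker of cycling cells, was at 8.50, 8.70 and 8.80 FPKM in N-mDCs and at 21.9, 36.2 and 34.3 FPKM in T-mDCs (log2 fold change 1.69, standard error 0.20, limma adjusted p = 0.0122). Top2a, the topoisomerase of dividing cells, rose from 11.4, 9.34 and 9.21 FPKM to 23.9, 39.1 and 38.7 FPKM (1.64, limma adjusted p = 0.0143). T-mDC sample 1 was the lowest of its group for all 25 genes called higher, and for Mki67 and Top2a it was still above all N-mDC samples. Plk1 and Kif20a, a mitotic kinase and a kinesin of cell division, rose by 1.69 and 1.80, and the cyclins Ccna2, Ccnb1 and Ccnb2 by 1.52, 1.49 and 1.29. The replication helicase genes Mcm2 to Mcm6 rose by 0.59 to 0.76, and Rrm2, a subunit of ribonucleotide reductase, by 1.09. Myc, a driver of cell growth, was the member that fell, from 25.6, 24.6 and 27.7 FPKM to 17.3, 13.3 and 14.7 FPKM (-0.75, limma adjusted p = 0.0319). With T-mDC samples 2 and 3 averaged, limma called 0 genes of the list at the adjusted threshold, and 31 were higher and 1 lower at an unadjusted p under 0.05. The counts were the same without T-mDC sample 2 and without T-mDC sample 3. The fit with all 9 samples called 0 (1 higher at an unadjusted p under 0.05), leaving out N-mDC sample 3 left 2 and leaving out N-mDC sample 1 left 12, limma-voom on recovered reads called 26 higher, and the median stayed between 0.94 and 1.17 when any sample was left out.

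Some markers of cDC1 were called higher and some markers of cDC2 lower in T-mDCs. Of 14 tested cDC1 markers, 5 were called higher and 0 lower, beside 3.15% and 4.27% of all tested genes, with a median log2 fold change of 0.96. Xcr1, the chemokine receptor that defines cDC1, was at 18.9, 13 and 11.4 FPKM in N-mDCs and at 25.4, 63.8 and 63.2 FPKM in T-mDCs. Its groups did not overlap and its difference missed the threshold (1.67, limma adjusted p = 0.0515). Naaa, a lysosomal amidase, rose from 97.1, 84.6 and 69.7 FPKM to 167, 261 and 271 FPKM (1.45, limma adjusted p = 0.0228). Itgae, which encodes CD103, rose from 6.23, 2.37 and 3.16 FPKM to 16.7, 13.7 and 14.2 FPKM (1.76, limma adjusted p = 0.0228), and Tlr3, Gcsam and Ppt1 were the other members called higher. Clec9a, a receptor for dead cells, and Irf8, the factor that cDC1 depend on, had log2 fold changes of 0.74 and 0.52 and were not called (limma adjusted p = 0.102 and 0.137).

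Of 16 tested cDC2 markers, 4 were called lower and 1 higher, beside 4.27% and 3.15% of all tested genes, with a median of -0.54. Cd209a, a lectin of the DC-SIGN family, was at 84.8, 67.1 and 77.9 FPKM in N-mDCs and at 16.4, 19.2 and 20.4 FPKM in T-mDCs (log2 fold change -1.98, standard error 0.15, limma adjusted p = 0.00431). Irf4, a transcription factor of cDC2, fell from 55.3, 39.6 and 46.3 FPKM to 12.8, 16.7 and 16.2 FPKM (-1.56, limma adjusted p = 0.0103), and Cd4 from 60.0, 34.0 and 43.1 FPKM to 10.9, 14.2 and 13.4 FPKM (-1.73, limma adjusted p = 0.0139). Clec10a, a lectin for galactose sugars, fell by 1.23 on the log2 scale, while its relative Mgl2 rose from 3.08, 2.40 and 2.21 FPKM to 6.10, 6.15 and 6.67 FPKM (1.04, limma adjusted p = 0.0144). Sirpa and Itgam, surface proteins used to gate cDC2, were not called (-0.49 and -0.97). The summed FPKM of the cDC1 list was 820, 740.1 and 614 in N-mDCs and 956, 1471 and 1483 in T-mDCs, and that of the cDC2 list 811, 852 and 717 in N-mDCs and 518, 473 and 466 in T-mDCs. Neither sum overlapped between the groups. Averaging T-mDC samples 2 and 3 left Cd209a as the 1 call in these lists. Without T-mDC sample 2, T-mDC sample 3 or N-mDC sample 3, limma called 1 cDC2 gene and 0 cDC1 genes, of which 8 were higher at an unadjusted p under 0.05 each time, as also with the averaged samples. Without N-mDC sample 2, 1 cDC1 gene was called, and without T-mDC sample 1, 9 cDC1 genes were called higher and 7 cDC2 genes lower.

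**Figure D4:**
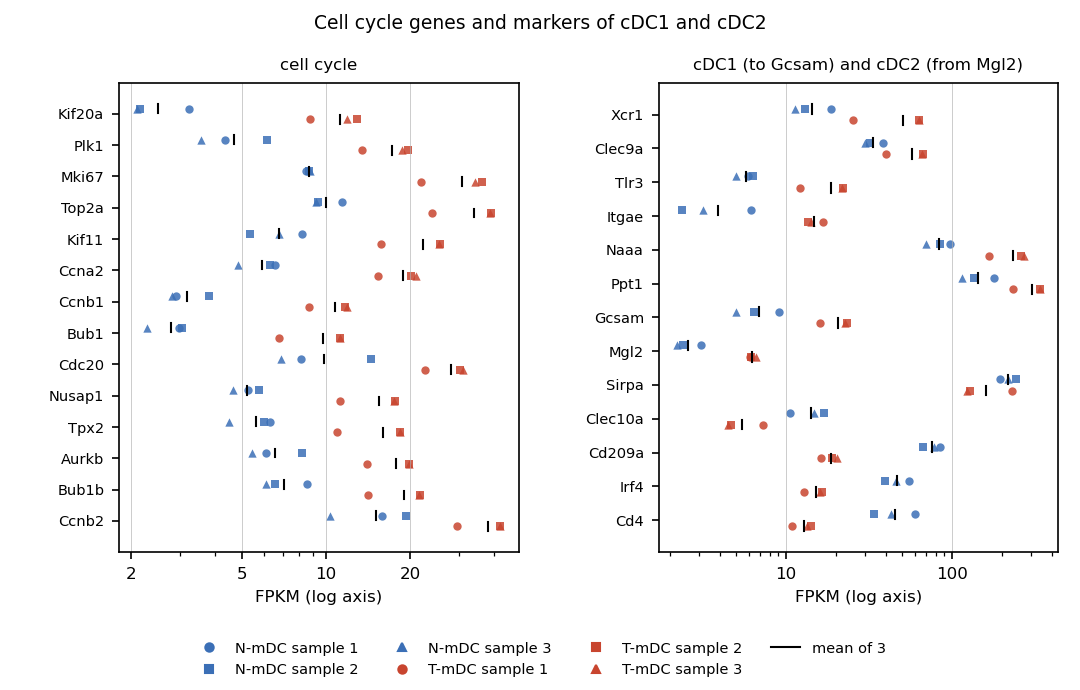
FPKM on a log axis for the 14 cell cycle genes with the largest increases (left) and for markers of cDC1 and cDC2 (right), with symbols by sample as marked below the panels and black bars for means of 3. Cell cycle genes and cDC1 markers lie to the right in T-mDCs, with T-mDC sample 1 nearest to N-mDCs in most of them. Clec10a, Cd209a, Irf4 and Cd4 lie to the left.

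Of 14 tested MHCII genes, 0 were called higher and 1 lower, beside 3.15% and 4.27% of all tested genes. The T-mDC samples were all below in 8, beside 15.7% of all tested genes, and the median log2 fold change was -0.52. Cd74, the invariant chain that guides MHCII, was at 11203, 13338 and 8706 FPKM in N-mDCs and at 6167, 8216 and 8328 FPKM in T-mDCs (-0.54, limma adjusted p = 0.190). The chains H2-Aa, H2-Ab1 and H2-Eb1 had log2 fold changes of -0.49, -0.74 and -0.70, and none of these 3 was called (the lowest limma adjusted p was 0.119, for H2-Eb1). H2-Ob, a chain of the inhibitor of peptide loading, fell from 154, 99.7 and 97.99 FPKM to 39.0, 54.7 and 53.3 FPKM (-1.23, limma adjusted p = 0.0330). Of 23 tested MHC class I genes, 1 was called lower and 0 higher, beside 4.27% and 3.15% of all tested genes, with a median of -0.10. The lower gene was H2-T23, which encodes Qa-1 (-0.68). With array weights 5 MHCII genes were called lower and 1 higher, and without T-mDC sample 1 there were 3 lower and 0 higher. Rescaling to TPM and quantile scaling each called 1 MHCII gene higher and 0 lower, with medians of -0.30 and -0.24. With T-mDC samples 2 and 3 averaged, or without T-mDC sample 2 or 3, limma called 0 MHCII genes and 0 MHC class I genes, and 5 and 2 were lower at an unadjusted p under 0.05.

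Of 31 tested genes of maturation and migration, Fas was called higher and Cd83 and Tnfaip2 lower, together a share near the 7.42% of all tested genes. Cd83, a surface protein of mature DCs, was at 1013, 608 and 714 FPKM in N-mDCs and at 181, 283 and 291 FPKM in T-mDCs (log2 fold change -1.63, limma adjusted p = 0.0238). Ccr7, the receptor that brings DCs to T cell zones, was at 867, 295 and 576 FPKM and at 539, 899 and 923 FPKM, with overlapping groups (0.53, limma adjusted p = 0.456). Fscn1, which bundles actin in mature DCs, was at 241, 55.1 and 107 FPKM and at 333, 373 and 392 FPKM. Its T-mDC samples were all above its N-mDC samples, and it was not called (1.69, limma adjusted p = 0.0879). Ccl5 and Tmem123 had log2 fold changes of 0.78 and 0.95 and were not called. The costimulatory genes Cd86 and Cd40 differed by 0.01 and 0.23 on the log2 scale and were not called. The median of the maturation list was 0.40, and N-mDC sample 2 was the lowest of all 6 samples for Ccr7, Fscn1, Ccl5, Tmem123 and Il12b. Without N-mDC sample 1, 5 genes of that list were called higher. With T-mDC samples 2 and 3 averaged, and without N-mDC sample 3, T-mDC sample 2 or T-mDC sample 3, limma called 0, while 5 were higher each time and 3 or 4 lower at an unadjusted p under 0.05. Among 23 tested costimulatory and coinhibitory ligands, 1 was called higher and 1 lower, beside 3.15% and 4.27% of all tested genes. Btla, an inhibitory receptor, was higher (1.13) and Lgals9, which encodes galectin-9, lower (-1.67). Neither call held with T-mDC samples 2 and 3 averaged.

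Of 35 tested genes of cholesterol synthesis and efflux, 7 were called lower and 1 higher, beside 4.27% and 3.15% of all tested genes, with a median log2 fold change of -0.50. Among the lower genes were the synthesis enzymes Fdft1, Sqle, Cyp51 and Msmo1 and the feedback regulator Insig1, with log2 fold changes between -1.38 and -0.71. Insig1 fell from 26.6, 36.5 and 57.4 FPKM to 12.01, 15.3 and 15.0 FPKM. After rescaling to TPM limma called 0 genes of this list lower (10 at an unadjusted p under 0.05), and likewise 0 with T-mDC samples 2 and 3 averaged (12) and without T-mDC sample 2 (12), T-mDC sample 3 (13) or N-mDC sample 3 (15). Without N-mDC sample 2 it called 2, without N-mDC sample 1 it called 4, and limma-voom on recovered reads called 8. Of 23 tested genes of the NF-kB pathway, Bcl3, Traf2 and Birc2 were called higher and the inhibitor Nfkbid lower, beside 3.15% and 4.27% of all tested genes. Of 23 tested survival genes, Birc2, Cflar and Fas, which act at the death receptors, were called higher (1.28, 1.10 and 1.66) and 0 lower, beside the same shares. Both lists held 0 called genes with T-mDC samples 2 and 3 averaged and without N-mDC sample 3, T-mDC sample 2 or T-mDC sample 3, while 3 NF-kB genes and 3 or 4 survival genes were higher at an unadjusted p under 0.05. Among 21 tested SOCS, STAT and IRF genes, 1 was called higher and 3 lower, beside 3.15% and 4.27% of all tested genes. The lower genes were Irf1, Irf4 and Irf7, and 0 of the 21 were called in those same fits (2 or 3 higher and 5 or 7 lower at an unadjusted p under 0.05). The higher gene, Socs3, an inhibitor of cytokine signaling, rose from 23.9, 27.8 and 40.3 FPKM to 92.7, 59.0 and 60.8 FPKM (1.18, limma adjusted p = 0.0456).

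In the Notch pathway, of 14 tested genes the ligand Dll4 rose from 1.76, 3.48 and 6.59 FPKM to 12.4, 15.1 and 16.6 FPKM (log2 fold change 1.78, limma adjusted p = 0.0372) and the target gene Hes1 fell from 23.05, 54.0 and 38.1 FPKM to 16.1, 6.76 and 7.13 FPKM (-1.86, limma adjusted p = 0.0461). Of 12 tested suppressive enzymes, Entpd1, which encodes CD39, fell from 20.2, 20.9 and 23.5 FPKM to 12.6, 9.70 and 10.03 FPKM (-0.94), and Tgm2, a transglutaminase, from 165, 129 and 116 FPKM to 38.8, 34.1 and 34.3 FPKM (-1.89, limma adjusted p = 0.00539). Adora2a, an adenosine receptor, rose from 32.8, 17.4 and 27.9 FPKM to 48.8, 59.7 and 59.3 FPKM (1.11, limma adjusted p = 0.0458). Of these, the call of Tgm2 held with T-mDC samples 2 and 3 averaged. The calls in the Notch and suppressive enzyme lists, and in the other lists of this paragraph, are to be read beside 3.15% higher and 4.27% lower among all tested genes. Of these lists, 2 of 32 genes of glycolysis and hypoxia were called higher and 2 lower, 2 of 24 genes of the unfolded protein response lower, 2 of 33 lysosomal genes lower, 2 of 26 integrins and tetraspanins higher and 3 lower, and 1 of 31 transcription factors of the DC lineage higher and 3 lower, and in all 5 lists limma called 0 genes with T-mDC samples 2 and 3 averaged, with up to 5 genes of a list higher and 2 to 5 lower at an unadjusted p under 0.05. Of 33 tested chemokine and lipid mediator receptors 1 was called higher and 5 lower, and of 40 tested uptake receptors 1 higher and 8 lower. Among the uptake receptors the T-mDC samples were all below in 20, beside 15.7% of all tested genes. Without T-mDC sample 1, 25 uptake receptors were called lower, and 1 was called lower with T-mDC samples 2 and 3 averaged and without N-mDC sample 3, T-mDC sample 2 or T-mDC sample 3. Of the chemokine and lipid mediator receptors 11 were called lower without T-mDC sample 1, 1 with T-mDC samples 2 and 3 averaged and 0 without T-mDC sample 2 (12 at an unadjusted p under 0.05).

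Several lists of markers of other spleen cells held genes called lower in T-mDCs. Their counts, here and in the next paragraph, are to be read beside 4.27% lower and 3.15% higher among all tested genes. Of 12 NK cell markers, 11 were called lower and 0 higher, with a median log2 fold change of -2.33, and 8 of the 12 passed the filter through N-mDCs alone. The summed FPKM of the NK cell list was 163, 229 and 275 in N-mDCs and 28.9, 47.9 and 43.5 in T-mDCs, or at most 0.0432% of reads in any sample. The list held 3 called genes with T-mDC samples 2 and 3 averaged (Nkg7, Gzma and Prf1), 3 without T-mDC sample 2, 3 without T-mDC sample 3, 4 without N-mDC sample 3 and 6 without N-mDC sample 2. Of 14 tested markers of T cells and T-ALL, 6 were called lower and 0 higher, and 3 of the 14 passed the filter through N-mDCs alone. The sum of this list was 174, 213 and 239 in N-mDCs and 89.8, 164 and 157 in T-mDCs. Rag1, a gene of immature T-lineage cells, was under 0.05 FPKM in all 6 samples, and Dntt, another, was at 2.92, 5.52 and 5.23 FPKM in N-mDCs and at 2.56, 0.657 and 0.971 FPKM in T-mDCs. Each T-mDC sum of this list was below each N-mDC sum. The list includes Cd4, which is also a cDC2 marker and was called lower as given above. Without Cd4 the sums of the groups overlap.

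Neutrophil markers summed to 102, 496 and 808 FPKM in N-mDCs and to 29.4, 24.9 and 24.5 FPKM in T-mDCs, and 5 of 9 tested genes were called lower, among them S100a9 (39.9, 215 and 388 FPKM against 1.73, 7.73 and 5.73 FPKM, -4.80). Of the 9 genes, 1 passed the filter through N-mDCs alone. Red pulp macrophage markers summed to 2734, 5454 and 3487 FPKM in N-mDCs and to 2226, 642 and 639.9 FPKM in T-mDCs, with 4 of 15 called lower. Without T-mDC sample 1, which held the most of these markers in its group, 15 were called lower, and without any other sample limma called 0 (10 to 13 at an unadjusted p under 0.05). Monocyte markers summed to 2804, 4174 and 4740.5 FPKM in N-mDCs and to 2002, 966 and 957 FPKM in T-mDCs, with 6 of 18 called lower. The log2 fold change was above 0 in 4 of the 18. This list includes the immediate early gene Nr4a1, called lower as given above, which makes up a large part of the N-mDC sums. Plasmacytoid DC markers summed to 686, 1258 and 1136 FPKM in N-mDCs and to 619, 476 and 467 FPKM in T-mDCs, with 8 of 18 called lower and 1 higher. Bst2, also in the interferon list, was among the lower genes, and the higher gene was Tlr9. The log2 fold change was above 0 in 4 of the 18, and Ly6c2 is in both this list and the monocyte list. In these lists the sums of the groups did not overlap. With T-mDC samples 2 and 3 averaged, limma called 0 genes of the T cell, neutrophil, red pulp macrophage, monocyte and plasmacytoid DC lists, while 11, 7, 11, 6 and 12 of them were lower at an unadjusted p under 0.05. Without T-mDC sample 2 or T-mDC sample 3 it called at most 1 gene of each of these 5 lists. Without N-mDC sample 3 it called 0 plasmacytoid DC and T cell markers and 1 neutrophil and 1 monocyte marker lower, and without N-mDC sample 2 these counts were 2, 2, 1 and 2. B cell markers summed to 1973, 12754 and 3567 FPKM in N-mDCs and to 4955, 552 and 566 FPKM in T-mDCs, with 4 of 17 called lower (13 without T-mDC sample 1 and 0 without N-mDC sample 3), and erythroid markers to 128, 5429 and 528 FPKM in N-mDCs and to 219, 52.3 and 45.7 FPKM in T-mDCs, with 0 of 11 called by limma (4 lower at an unadjusted p under 0.05) and 1 by limma-voom. Of 11 tested plasma cell markers limma called 0 (3 lower at an unadjusted p under 0.05) and limma-voom 1. For B cells and erythroid cells the sums of the groups overlapped, and N-mDC sample 2 held by far the most. Several genes named above are also expressed by these cells, such as Il1b, Cxcl2, Cd14 and Il1r2 by monocytes or neutrophils and Nr4a1 by monocytes. The part of other cells in the differences was not tested.

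**Figure D5:**
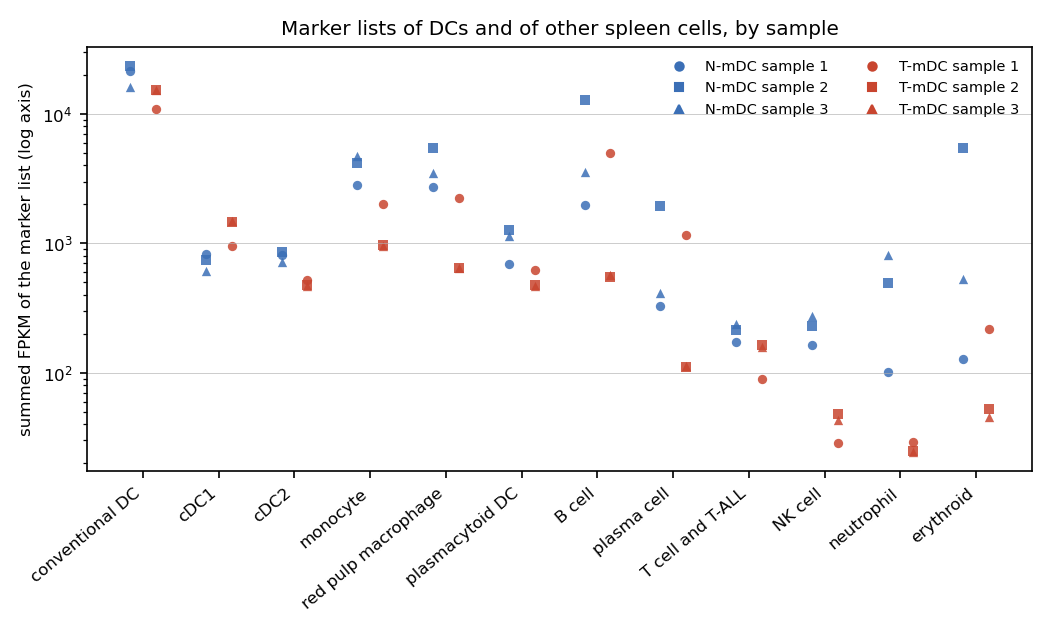
Summed FPKM (log axis) of marker lists of DCs and of other spleen cells in each sample, blue for N-mDCs and red for T-mDCs, with circles, squares and triangles for samples 1, 2 and 3. T-mDC samples are lower for NK cells, neutrophils, monocytes, red pulp macrophages and plasmacytoid DCs, the groups overlap for B cells, plasma cells and erythroid cells, and T-mDC sample 1 lies apart from T-mDC samples 2 and 3 in several lists.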

How the data were processed

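Bulk RNA-seq of sorted spleen cells was analysed in 3 N-mDC and 3 T-mDC samples, grouped by their labels. The authors deposited 1 table of FPKM values per gene, on genome build mm10 per the labels. The aligner, the annotation, the counting and its strand setting are not given in the sources used here. FPKM multiplied by gene length came out as whole reads, so depth could be recovered, and a read on a short gene weighs more than one on a long gene.

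The test covered the 12142 genes that reached 1 FPKM in 3 or more of the 6 samples. limma 3.58.1 in R 4.3.3 was run on log2(FPKM + 1) with lmFit and eBayes (trend = TRUE), two-sided, with Benjamini-Hochberg adjustment over all tested genes and a threshold of 0.05. The script was tested on simulated data. Named genes were the 12 largest increases and the 12 largest decreases among called genes whose groups did not overlap and whose call held with T-mDC samples 2 and 3 averaged, leaving out clone names and receptor segments, then called list members, with up to 4 of the most abundant members per list that were not called. Other uncalled genes named in the text were chosen after their values were seen. Members and lists were chosen with earlier results of these data known. Lists were described by counts, with no set test. A few genes that these rules name are not reported here. Promoter and microRNA sequences were taken from RefSeq tables (GRCm38.p6) by gene symbol. The alternatives covered other samples in the fit, pseudocounts, filters, scalings, weights, tests and each sample left out. Figures were drawn with matplotlib 3.10.9.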

Additional observations from a re-analysis of the deposited data

How the results depend on the processing

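The counts of 383 genes higher and 518 lower moved by over 1.5 times, in at least 1 direction, in several alternatives. They were 103 and 220 with all 9 samples in the fit, 18 and 49 with T-mDC samples 2 and 3 averaged, 113 and 184 with no filter, 214 and 340 with a minimum of 5 FPKM, 659 and 330 rescaled to TPM, 1760 and 1852 with array weights, and 1 and 8 in a test against a log2 fold change of 1. With 1 sample left out they ranged from 17 to 549 and from 45 to 1000. Array weights ran from 0.153 for N-mDC sample 2 to 6.11 for T-mDC sample 3, so that fit rests on the 2 close T-mDC samples. The other causes were not tested. A pseudocount of 0.1, a filter on the mean, quantile and median-of-ratios scaling, no variance trend and limma-voom on recovered reads kept both counts within 1.5 times. Deviations from group means correlated at -0.49, -0.35 and 0.01 between same-numbered samples. These values cannot decide whether replicate numbers pair the samples, since deviations within a group sum to 0 and T-mDC samples 2 and 3 are close. The fit with the replicate block called 13 higher and 59 lower. Of 2 uncalled genes, Itgax (-0.14) turned to 0.082 with TPM and 0.11 with quantile scaling and ranged from -0.23 to 0.041 with a sample left out. Cd86 (0.01) turned to -0.021 with T-mDC samples 2 and 3 averaged and to -0.022 with median-of-ratios scaling, and ranged from -0.031 to 0.066. Of 204 called genes named by the rules or the text, 0 changed direction in these alternatives, and their calls held in 2513 of 4044 comparisons. Depth limits genes of few reads, such as mt-Tl2 and Mir7061.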

Other observations

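Some genes outside the lists and the naming rule also differed and were chosen here after their values were seen. Several T cell receptor segments with reads in N-mDCs had 0 reads in the T-mDC samples. All of them passed the filter on low FPKM through N-mDCs alone, so they had to differ. Trbd1, a diversity segment of the beta chain, was at 32.0, 77.6 and 101 FPKM in N-mDCs and had 0 reads in T-mDCs, at least 15.9-fold lower against a floor of 3 reads over the group. Its N-mDC values rest on 43 reads, since the segment is very short. The joining segment Trbj1-5 had 44 reads in N-mDCs and 0 in T-mDCs, at least 16.4-fold lower, and Trbj1-4 had 31 and 0, at least 11.8-fold lower. These bounds cover counting error alone. Transcripts of the beta chain were not absent from T-mDCs. Its constant gene Trbc2 was at 7.76, 28.3 and 23.5 FPKM in N-mDCs and at 1.76, 5.61 and 4.01 FPKM in T-mDCs. It was not called (-2.03, limma adjusted p = 0.0659). Of 6 tested constant genes of T cell receptors, 2 were called lower and 0 higher.

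Fam89a, a gene of little-known function, rose from 7.36, 1.44 and 3.13 FPKM to 36.9, 44.0 and 45.9 FPKM (log2 fold change 3.30, limma adjusted p = 0.0137). Insm1, a zinc finger factor known from neuroendocrine cells, rose from 12.2, 2.62 and 7.62 FPKM to 23.03, 54.5 and 54.9 FPKM (2.50, limma adjusted p = 0.0444). N-mDC sample 2 was the lowest for both genes, and T-mDC sample 1 was the lowest of its group. Thbs1, the matrix protein thrombospondin, fell from 9.90, 14.02 and 65.6 FPKM to 0.628, 0.545 and 0.528 FPKM (-3.82, limma adjusted p = 0.0238), with N-mDC sample 3 far above the other samples. H1fx, a linker histone, rose from 0.158, 0.459 and 0.588 FPKM to 13.2, 3.57 and 4.56 FPKM (2.36, limma adjusted p = 0.0282), highest in T-mDC sample 1. Thbs1 passed the filter on low FPKM through N-mDCs alone and H1fx through T-mDCs alone, so both had to differ.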
